A study of Homo sapiens with 10 samples.

Results

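The 10 genes described here are 5 classical cadherins (CDH1, CDH2, CDH3, CDH6 and CDH11), the intermediate filament gene VIM and 4 transcription factors of the epithelial-mesenchymal transition (ZEB1, ZEB2, SNAI2 and TWIST1). They were taken by symbol from the deposited transcript annotation, where they hold 41 of 99493 transcripts and 10 of 57110 gene identifiers, and none shares its identifier with another gene. Their RNA was read on nanopore instruments in 7 established ovarian cancer lines, for which the labels state no treatment and no genetic change. The lines COV362, COV504, OVKATE, OVMANA, OVTOKO and SK-OV-3 had 1 PromethION library each, and IGROV-1 had 2 libraries on the PromethION and 2 on the MinION, a smaller nanopore instrument. The labels do not say whether the IGROV-1 replicates came from separate cultures, so p-values measure only the spread between these libraries, which may be technical. Levels are given as CPM, the estimated reads of a gene scaled by the library total.

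Cadherins are calcium-dependent adhesion proteins that hold neighbouring cells together and are tied to the actin cytoskeleton by catenins. E-cadherin, encoded by CDH1, is the main cadherin of most epithelia. In the epithelial-mesenchymal transition (EMT) factors of the ZEB, SNAIL and TWIST families repress CDH1 and other epithelial genes, while N-cadherin and vimentin rise. The ovarian surface epithelium is known for carrying N-cadherin and vimentin in its normal state, and ovarian carcinomas often carry E-cadherin together with mesenchymal proteins.

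Library totals lay between 1729782 and 3666224 counts. The 6 other lines have no replicates, so their tests assume that a lone library varies like the IGROV-1 replicates. CDH1, CDH3, CDH6, CDH11, SNAI2 and TWIST1 held 0 counts in all 4 IGROV-1 libraries. For these genes the replicates show no spread, and the tests borrow it from other genes. A count of 0 allows up to 3 counts, which is 1.18 to 1.73 CPM in a single PromethION library of the other lines and 0.64 CPM over both IGROV-1 PromethION libraries. Folds given as at least set the observed level of the higher side over this floor. They leave out the counting error of that level, so with few counts they are not strict bounds. The 95% Poisson interval was 1.09 to 6.46 CPM for 6 TWIST1 counts in OVKATE and 2.43 to 9.31 CPM for 10 CDH1 counts in SK-OV-3. Of 6 markers of ovarian carcinoma and epithelium, all exceeded 5 CPM in some library, and their summed level ran from 415 to 8369 CPM. Within IGROV-1 this sum differed by replicate number on both instruments, with 481 and 415 CPM in replicate 1 and 1182 and 1260 CPM in replicate 2 (PromethION and MinION), mostly from KRT18. EPCAM and MUC16 did not exceed 1.54 CPM in any IGROV-1 library, and WT1 was at 0 in all 4. WT1 was also at 0 in OVMANA, OVTOKO, SK-OV-3 and COV504, and MUC16 in OVTOKO and SK-OV-3. Leukocyte markers summed to at most 4.4 CPM, with CD3E at 0 in all 10 libraries. Mitochondrial ribosomal RNA took 9.13% and 10.95% of counts in the IGROV-1 PromethION libraries, against 1.58% to 3.31% in the other lines and 1.01% to 1.15% on the MinION. Its part in the comparisons with IGROV-1 was not tested.

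The lines differed first in how many of the 10 genes they carried at all. SK-OV-3 and COV504 had at least 1 count of all 10, COV362 of 8, OVKATE of 6, and OVMANA and OVTOKO of 4 each. IGROV-1 had 3 and 2 on the PromethION and 2 and 2 on the MinION. In every IGROV-1 library VIM and ZEB1 were the genes with more than 1 count, and the third was a single CDH2 count in PromethION replicate 1. IGROV-1 was thus a line with vimentin and ZEB1 and with none of the 5 cadherins above the floor.

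**Figure D1:**
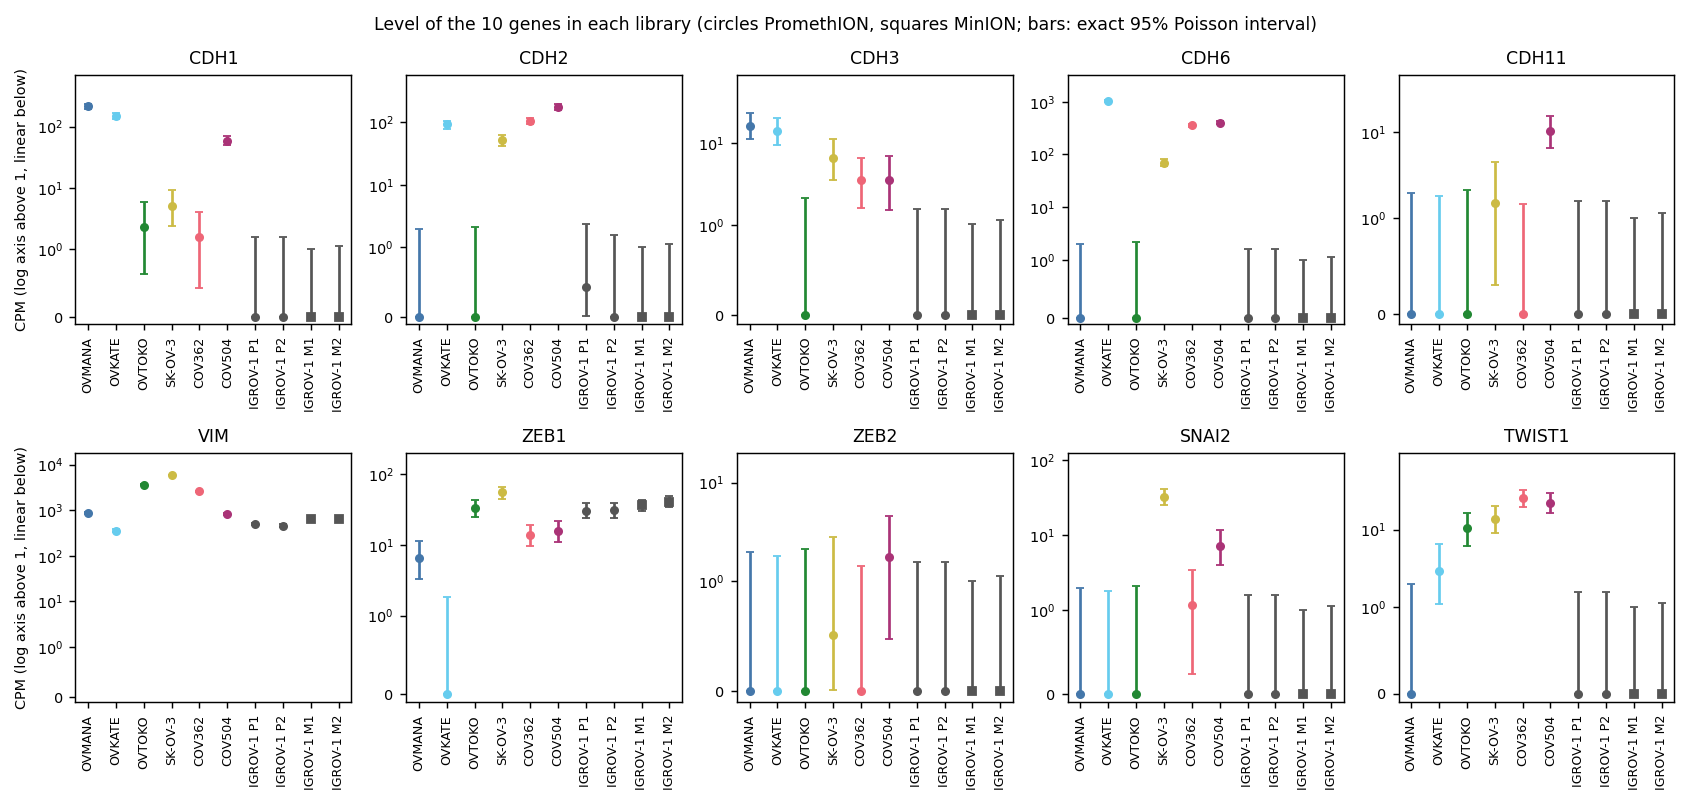
CPM of each of the 10 genes (y axis, logarithmic above 1 CPM and linear below) in the 10 libraries (x axis); IGROV-1 P1 and P2 are the PromethION replicates and M1 and M2 the MinION replicates. Bars are exact 95% Poisson intervals and cover counting error only. VIM was present in all 10 libraries, whereas CDH2 and CDH6 were high in the same 4 lines and CDH1 was highest in OVMANA, OVKATE and COV504.

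CDH1 (ENSG00000039068, GRCh38 chromosome 16, 68737225 to 68835548, plus strand) separated the lines into a high and a low group. Its level was 214 CPM in OVMANA, 151 CPM in OVKATE and 59.2 CPM in COV504. It was 5.06 CPM in SK-OV-3, 2.31 CPM in OVTOKO and 1.57 CPM in COV362, and all 4 IGROV-1 libraries held 0 counts. OVMANA and OVKATE differed by 0.87 on the log2 scale (edgeR adjusted p = 0.0196), and OVKATE exceeded COV504 by 1.13 (adjusted p = 0.0111). Both calls were lost with DESeq2 (adjusted p = 0.63 and 0.54) and without MinION replicate 1 of IGROV-1 (adjusted p = 0.066 and 0.057), and the first also without MinION replicate 2 (adjusted p = 0.052). COV504 exceeded SK-OV-3 by 3.68 (adjusted p = 0.000895), while SK-OV-3, OVTOKO and COV362 could not be told apart (adjusted p = 0.479 and 0.671 for neighbours).

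Against IGROV-1 PromethION, CDH1 was at least 334-fold higher in OVMANA, at least 235-fold in OVKATE and at least 92.1-fold in COV504, with adjusted p of 1e-05, 1.5e-05 and 4.7e-05 in edgeR. In SK-OV-3 it was at least 7.9-fold higher (adjusted p = 0.0055). The calls in OVTOKO and COV362 rested on 4 counts each, with adjusted p of 0.026 and 0.032. They were lost, with adjusted p of 0.086 and 0.087, when MinION replicate 1 of IGROV-1 was left out, and with 0.07 and 0.073 when MinION replicate 2 was. The COV362 call was also lost without either IGROV-1 PromethION replicate, with DESeq2 and without the expression filter.

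Almost all CDH1 counts belonged to CDH1-201 (ENST00000261769, 16 exons), with 97.2% in OVMANA, 98.1% in OVKATE and 97.6% in COV504. CDH1-212 (ENST00000611625), which has 17 exons, took 2.8%, 1.9% and 2.4% in the same libraries, with overlapping 95% Wilson intervals that ran from 0.8% to 6.4% in all.

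CDH3 encodes P-cadherin, a second classical cadherin of epithelia. The gene (ENSG00000062038) lies on chromosome 16 from 68644836 to 68700295, upstream of CDH1 on the same strand. CDH3 was present in the 3 lines with high CDH1, at 16.6 CPM in OVMANA, 14.3 CPM in OVKATE and 3.56 CPM in COV504, and also in SK-OV-3 (6.58 CPM) and COV362 (3.53 CPM). OVTOKO and IGROV-1 held 0 counts.

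No neighbouring pair of lines in the order of CDH3 levels passed the test, with adjusted p between 0.0627 and 1. Against IGROV-1, the 31 and 29 counts of OVMANA and OVKATE gave at least 25.8-fold and 22.3-fold higher levels (adjusted p = 0.0013 and 0.0015). SK-OV-3, COV362 and COV504 were also called (adjusted p = 0.0073, 0.015 and 0.018), on 13, 9 and 8 counts. Without MinION replicate 1 of IGROV-1 the calls in COV362 and COV504 were lost, at adjusted p of 0.051 and 0.053. With DESeq2 the adjusted p of SK-OV-3, COV362 and COV504 was 0.091, 0.15 and 0.16.

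CDH2 (ENSG00000170558, chromosome 18, 27950966 to 28177446, minus strand) encodes N-cadherin, the cadherin of neural and mesenchymal tissues. Its level was 174 CPM in COV504, 105.0 CPM in COV362, 92.0 CPM in OVKATE and 51.7 CPM in SK-OV-3. OVMANA and OVTOKO held 0 counts, and IGROV-1 held 1 count over both PromethION libraries and 0 on the MinION. The 4 lines with CDH2 were thus separated from the other 3 without overlap.

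Set against the single IGROV-1 count, the ratio of CPM was 812 in COV504 (exact 95% interval 145 to 32163) and 241 in SK-OV-3 (42 to 9619), with COV362 and OVKATE at 490 and 430. The adjusted p in edgeR lay between 5.3e-06 and 5e-05. COV504 and COV362 did not differ past the threshold (log2 difference 0.61, adjusted p = 0.089), nor did COV362 and OVKATE (0.53, adjusted p = 0.122). COV504 exceeded OVKATE by 1.14 and SK-OV-3 by 1.90 on the log2 scale. SK-OV-3 was also exceeded by COV362 (1.29) and by OVKATE (0.76). These differences were called with edgeR, and each call was lost under some alternative. CDH2-201 (ENST00000269141) held at least 99.8% of the counts in each of the 4 lines.

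CDH6 encodes K-cadherin, a type II cadherin of the embryonic kidney that is used as an antibody target in ovarian cancer. The gene (ENSG00000113361) lies on chromosome 5 from 31193750 to 31329146 on the plus strand. CDH6 reached 1056 CPM in OVKATE, 405 CPM in COV504, 359.6 CPM in COV362 and 70.4 CPM in SK-OV-3. OVMANA, OVTOKO and all 4 IGROV-1 libraries held 0 counts.

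The 4 lines with CDH6 were the 4 lines with CDH2, in another order. OVKATE exceeded COV504 by 1.16 on the log2 scale (edgeR adjusted p = 0.00532), COV504 and COV362 could not be told apart (0.05, adjusted p = 0.877), and COV362 exceeded SK-OV-3 by 2.62 (adjusted p = 0.000418). With DESeq2 the difference between OVKATE and COV504 was not called (adjusted p = 0.089). Against IGROV-1 the level was at least 1644-fold higher in OVKATE, 631-fold in COV504, 559.8-fold in COV362 and 109.6-fold in SK-OV-3, with adjusted p between 2.4e-06 and 3.9e-05.

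CDH6 was counted as several transcripts. The full-length CDH6-201 (ENST00000265071) has 12 exons and codes for 790 residues. CDH6-205 (ENST00000514738) reads through the end of exon 11 at base 31317924, lacks exon 12 and codes for 608 residues. Its last 107 coding bases come from what is intron in CDH6-201, in place of 488 coding bases of exon 12. Its annotated start codon also lies 165 coding bases downstream in the same exon, at base 31267639 against 31267474. Both coding ends are shown because the exons of the 2 transcripts differ there. They start at chr5:31317901 on the plus strand, come from GENCODE 29, begin with the last 24 bases of the shared part of exon 11 in lower case, and have in capitals the intron-derived end with its stop codon for CDH6-205 and the first 60 bases of exon 12 for CDH6-201.
CDH6-205: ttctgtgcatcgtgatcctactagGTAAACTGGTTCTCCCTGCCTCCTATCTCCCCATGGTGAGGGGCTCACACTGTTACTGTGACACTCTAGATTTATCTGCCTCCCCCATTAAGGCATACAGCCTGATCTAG
CDH6-201: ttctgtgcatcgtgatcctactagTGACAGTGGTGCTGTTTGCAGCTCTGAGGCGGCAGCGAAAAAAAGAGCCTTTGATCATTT

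CDH6-205 took 11.4% of the 911 CDH6 counts of COV504, with a 95% Wilson interval of 9.5% to 13.6%. Its share was 3.9% of 918 counts in COV362 (2.8% to 5.3%), 2.8% of 2136 counts in OVKATE (2.2% to 3.6%) and 2.3% of 139 counts in SK-OV-3 (0.7% to 6.2%). The COV504 interval did not overlap the other 3, and these intervals cover counting error only. The test of transcript usage adds a spread between libraries, which for CDH6 is borrowed from other genes, as IGROV-1 held 0 CDH6 counts. It did not call CDH6 between COV504 and OVKATE (edgeR Simes adjusted p = 0.2), COV362 (adjusted p = 0.38) or SK-OV-3 (adjusted p = 0.47). The share of 4730 genes called was 1.01%, 0.444% and 0.359% in these comparisons, which were chosen after the shares were seen.

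CDH11, which encodes the mesenchymal OB-cadherin (ENSG00000140937, chromosome 16, 64943753 to 65122198, minus strand), was found in COV504 with 23 counts (10.2 CPM) and in SK-OV-3 with 3 counts (1.52 CPM). The other 8 libraries held 0. COV504 was at least 15.9-fold above IGROV-1 (edgeR adjusted p = 0.0038), SK-OV-3 did not pass the test (adjusted p = 0.1), and COV504 and SK-OV-3 did not differ past the threshold (adjusted p = 0.0503). In COV504, 98.4% of the counts were CDH11-201 (ENST00000268603), with a 95% Wilson interval of 85.7% to 100%.

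VIM encodes vimentin, the intermediate filament protein of mesenchymal cells (ENSG00000026025, chromosome 10, 17229278 to 17237593, plus strand). It was found in all 10 libraries through its single deposited transcript, VIM-201. The level was 5964 CPM in SK-OV-3, 3663 CPM in OVTOKO and 2637 CPM in COV362. OVMANA (869.9 CPM) and COV504 (808 CPM) lay lower, and OVKATE had the lowest value, 351 CPM. IGROV-1 had 505 and 457.5 CPM on the PromethION (481 ± 33.8, SD, n = 2) and 645 and 626 CPM on the MinION (635 ± 13.5, SD, n = 2).

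Vimentin was called higher than in IGROV-1 PromethION in 5 lines and lower in OVKATE. The log2 change was 3.40 (SE 0.16) in SK-OV-3, 3.01 (SE 0.16) in OVTOKO and 2.50 (SE 0.15) in COV362, with edgeR adjusted p of 3.7e-06, 5.1e-06 and 1.4e-05. It was 0.92 (SE 0.16, adjusted p = 0.0026) in OVMANA, 0.67 (SE 0.16, adjusted p = 0.0097) in COV504 and -0.76 (SE 0.17, adjusted p = 0.0064) in OVKATE. The COV504 call was lost without IGROV-1 PromethION replicate 2 (adjusted p = 0.087) and with all 4 IGROV-1 libraries as reference (adjusted p = 0.11).

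SK-OV-3 and OVTOKO did not differ past the threshold in VIM (log2 difference 0.40, adjusted p = 0.151), nor did OVTOKO and COV362 (0.51, adjusted p = 0.0621) or OVMANA and COV504 (0.25, adjusted p = 0.347). COV362 exceeded OVMANA by 1.58 (adjusted p = 0.000544), which split the lines into 3 with high and 4 with low vimentin. The upper 3 lines were not all alike, since SK-OV-3 exceeded COV362 by 0.91 on the log2 scale, a difference called with edgeR. Nor were the lower 4, as given above for COV504 and OVKATE against IGROV-1. The antisense gene VIM-AS1 had 0.00 to 10.9 CPM, highest in OVKATE. The use of strand in counting is not given in the sources used here, so reads of a gene and its antisense partner cannot be told apart.

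ZEB1 encodes a zinc finger repressor of CDH1 (ENSG00000148516, chromosome 10, 31319125 to 31529813, plus strand). Its level was 54.7 CPM in SK-OV-3, 33.0 CPM in OVTOKO, 15.6 CPM in COV504, 13.7 CPM in COV362 and 6.41 CPM in OVMANA. OVKATE held 0 counts. IGROV-1 had 30.3 and 30.9 CPM on the PromethION (30.6 ± 0.42, SD, n = 2) and 36.3 and 40.8 CPM on the MinION (38.5 ± 3.19, SD, n = 2).

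Against IGROV-1, ZEB1 fell by 2.19 on the log2 scale in OVMANA (SE 0.32, edgeR adjusted p = 0.0011), and it was at least 20.6-fold lower in OVKATE (adjusted p = 3.1e-05). It also fell by 1.11 in COV362 (SE 0.25, adjusted p = 0.0075) and by 1.05 in COV504 (SE 0.25, adjusted p = 0.0093). With DESeq2 the calls in OVMANA, COV362 and COV504 were lost, at adjusted p of 0.082, 0.47 and 0.52, and the one in OVKATE held. OVTOKO did not pass the test (log2 change 0.18, SE 0.23, adjusted p = 0.59). The call in SK-OV-3 (log2 change 0.61, SE 0.20, adjusted p = 0.041) was lost when any of the 4 IGROV-1 libraries was left out, with adjusted p between 0.054 and 0.13. It was also lost with DESeq2 (adjusted p = 0.72), with all 4 IGROV-1 libraries as reference (0.15), without the expression filter (0.062) and with the PromethION libraries alone (0.054).

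**Figure D2:**
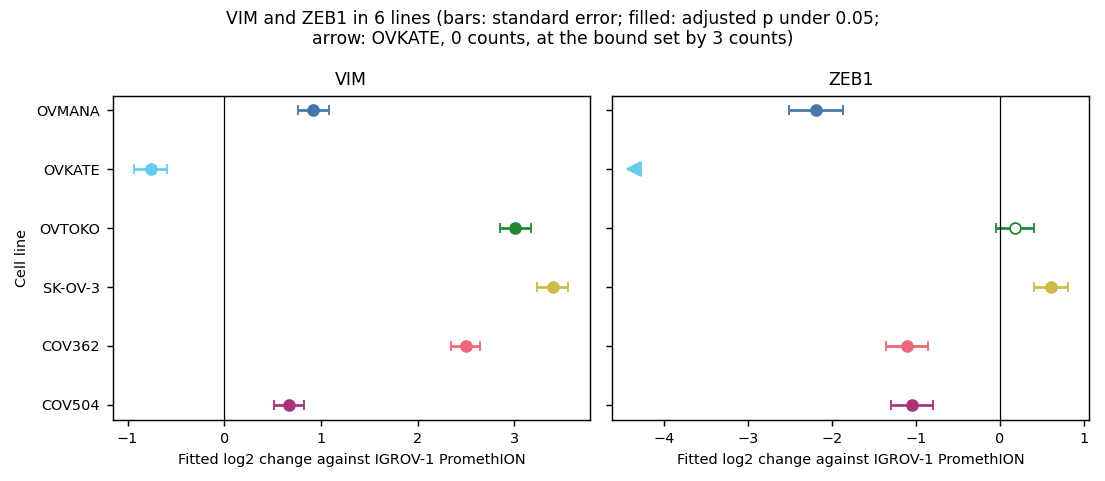
Fitted log2 change (x axis) of VIM and ZEB1 in each of 6 lines (y axis) against IGROV-1 PromethION, from edgeR. Bars are standard errors, filled circles have an adjusted p under 0.05, and the arrow marks OVKATE, whose 0 ZEB1 counts give a bound of at least 20.6-fold lower. VIM and ZEB1 were both lowest in OVKATE and both highest in SK-OV-3.

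In the CDH1-high lines OVMANA, OVKATE and COV504, ZEB1 was at 6.41, 0 and 15.6 CPM. The 2 lines with the highest ZEB1 on the PromethION, SK-OV-3 and OVTOKO, had 5.06 and 2.31 CPM of CDH1. IGROV-1, with 30.6 CPM of ZEB1 on the PromethION and 38.5 CPM on the MinION, held 0 counts of CDH1. COV362, with 13.7 CPM of ZEB1 and 1.57 CPM of CDH1, shared its ZEB1 level with COV504 (log2 difference 0.06, adjusted p = 0.927). No test of a relation between the 2 genes was run over the 7 lines.

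ZEB1 counts were divided mainly between ZEB1-202 (ENST00000361642) and ZEB1-201 (ENST00000320985), which begin 47 bases apart, end 611 bases apart and differ inside the coding sequence by the start of exon 3, at base 31495776 or 31495779 of chromosome 10. The junction is shown because this choice adds 3 bases, and 1 residue, to the protein (1125 against 1124 residues). Lower case gives the last 24 bases of exon 2 and the first 30 bases common to exon 3 from GENCODE 29, and capitals the 3 extra bases.
ZEB1-202: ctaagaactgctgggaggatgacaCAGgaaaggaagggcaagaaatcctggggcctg
ZEB1-201: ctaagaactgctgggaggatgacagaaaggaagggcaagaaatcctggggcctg

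The share of ZEB1-202 was 55.2% in OVTOKO, 48.0% in SK-OV-3, 69.5% in COV362 (95% Wilson interval 52.0% to 81.4%) and 29% in COV504 (16.3% to 45.1%). In IGROV-1 it was 52.7% and 39.8% on the PromethION and 29.5% and 37.1% on the MinION. The 4 IGROV-1 libraries thus spanned 23.2 percentage points for the same line. ZEB1 usage was called in none of the 6 comparisons with IGROV-1 (edgeR Simes adjusted p between 0.58 and 1) nor between COV504 and COV362 (adjusted p = 0.65). OVKATE held 0 and OVMANA 12 ZEB1 counts, so the comparison says nothing about usage in OVKATE and little in OVMANA. ZEB1-205 (ENST00000446923), which starts from another first exon at base 31321135, took 2.7% to 5.7% except in MinION replicate 2 of IGROV-1, where it took 15.3% (10% to 22.2%).

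**Figure D3:**
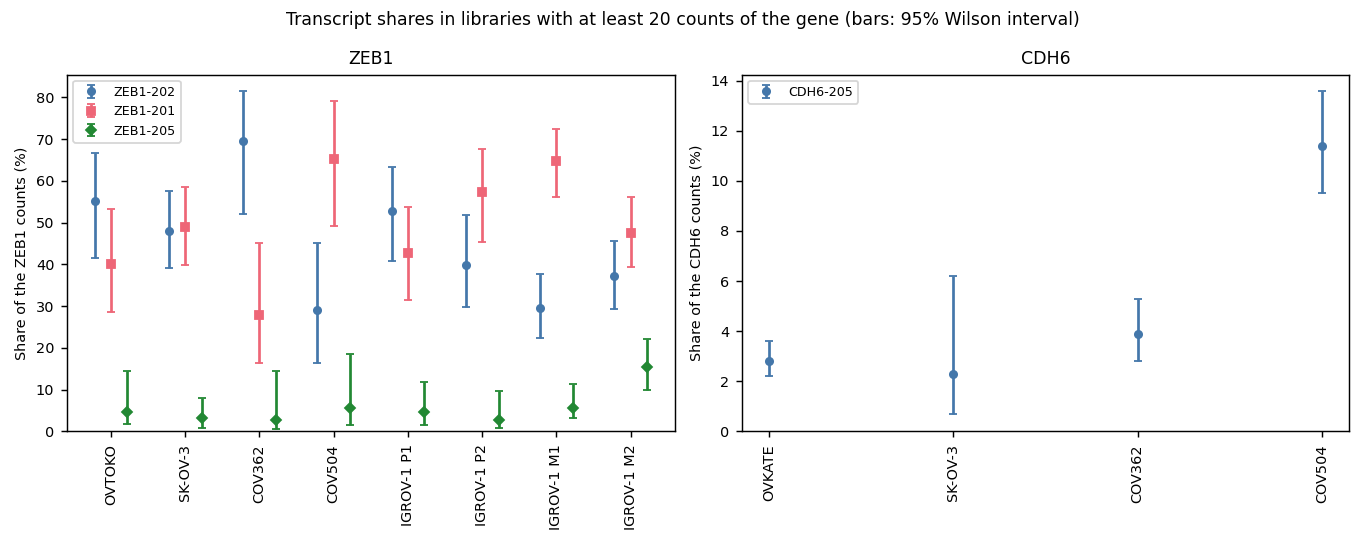
Share of a gene's counts (y axis, percent) taken by 3 ZEB1 transcripts (left) and by CDH6-205 (right) in each library with at least 20 counts of the gene (x axis). Bars are 95% Wilson intervals for counting error. The ZEB1-202 and ZEB1-201 shares of the 4 IGROV-1 libraries lie between those of COV362 and COV504, and the CDH6-205 share of COV504 lies above the other 3 lines.

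Usage of CDH1, CDH6 and ZEB1, the 3 members with enough transcripts for this test, was called in no line against IGROV-1. Of 4730 genes the share called was 4.97% in OVKATE, 2.98% in COV362, 2.75% in OVMANA, 2.56% in COV504, 2.07% in SK-OV-3 and 1.35% in OVTOKO. The number of genes called fell in every line when any single IGROV-1 library was left out. With 0 counts of CDH1 and CDH6 in IGROV-1, this comparison says nothing about the usage of those 2 genes.

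ZEB1 and its relative ZEB2 are the best known targets of the miR-200 family of microRNAs, which they repress in turn. The mature sequences are shown because MIR200CHG, the host gene of miR-200c and miR-141, was counted here. They come from RefSeq on GRCh38.p14, with the seed, bases 2 to 8, in capitals. Those of miR-200b, miR-200c and miR-429 share 1 seed and those of miR-200a and miR-141 another.
hsa-miR-200b-3p: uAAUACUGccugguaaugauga
hsa-miR-200c-3p: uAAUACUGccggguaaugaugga
hsa-miR-429: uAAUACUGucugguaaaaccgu
hsa-miR-200a-3p: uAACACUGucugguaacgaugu
hsa-miR-141-3p: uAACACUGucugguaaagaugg

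The letters that pair with the first seed, CAGTATT, occur 6 times in the 2549-base 3′ UTR of ZEB1-202 and 5 times in the 1938-base 3′ UTR of ZEB1-201. The letters for the second, CAGTGTT, occur 3 times in each. Of 2382 genes with a 3′ UTR within 20% of the length of that of ZEB1-202, 26% hold CAGTATT at least once and 0.042% hold it as often. For CAGTGTT the shares are 29.4% and 0.714%. ZEB1 itself was not left out of the genes compared, so these shares are not a background apart from it. The 5370-base 3′ UTR of ZEB2-227 holds 5 and 4 matches. The first match in ZEB1-202 and ZEB2-227 for each seed is given with its surroundings, the match in capitals. These are matches of letters on the transcript strand only, and whether they were bound was not measured.
ZEB1, chr10:31527625-31527644 (plus strand): tatcttatCAGTATTatcac
ZEB1, chr10:31528038-31528057 (plus strand): atcagaatCAGTGTTtgtga
ZEB2, chr2:144389048-144389067 (minus strand): ccatacatCAGTATTtttat
ZEB2, chr2:144389232-144389251 (minus strand): attttgtaCAGTGTTaaggc

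MIR200CHG was found at 5.34 CPM in OVMANA and 5.44 CPM in OVKATE, the 2 lines with the lowest ZEB1 and the highest CDH1. COV362 had 0.39 CPM and MinION replicate 2 of IGROV-1 0.31 CPM, while OVTOKO, SK-OV-3, COV504 and the other 3 IGROV-1 libraries had 0. The host gene was called above IGROV-1 PromethION in OVMANA and OVKATE (edgeR adjusted p = 0.012 and 0.011). The microRNAs themselves were not measured by this assay.

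ZEB2 (ENSG00000169554, chromosome 2, 144384081 to 144520398, minus strand) was close to the limit of detection everywhere. COV504 had 4 counts (1.78 CPM) and SK-OV-3 had 1 count (0.51 CPM), and the other 8 libraries had 0, so it did not pass the expression filter and was not tested. Although 19 of the 41 transcripts belong to ZEB2, 2 of them reached 1 count. ZEB1-AS1, antisense to ZEB1, had 2.15 to 9.12 CPM and ZEB2-AS1 had 0 in all 10 libraries.

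SNAI2, the gene of the zinc finger repressor SLUG on chromosome 8 (ENSG00000019549), was found in 3 lines. It had 32.4 CPM in SK-OV-3, 7.12 CPM in COV504 and 1.18 CPM (3 counts) in COV362, and 0 counts in all other libraries. SK-OV-3 exceeded COV504 by 2.03 on the log2 scale (edgeR adjusted p = 0.0244), a call lost without MinION replicate 1 or 2 of IGROV-1 (adjusted p = 0.07 and 0.055). Against IGROV-1 it was at least 50.4-fold higher in SK-OV-3 (adjusted p = 0.00047) and at least 11.1-fold in COV504 (adjusted p = 0.0051). COV362 did not pass the test (adjusted p = 0.09), and the COV504 call was lost with DESeq2 (adjusted p = 0.14).

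TWIST1 encodes a basic helix-loop-helix factor (ENSG00000122691, chromosome 7, 19115468 to 19117672, minus strand). It was at 25.5 CPM in COV362, 22.2 CPM in COV504, 13.7 CPM in SK-OV-3, 10.4 CPM in OVTOKO and 2.97 CPM in OVKATE, and at 0 in OVMANA and all IGROV-1 libraries. The 4 upper lines could not be told apart as neighbours (adjusted p = 0.561, 0.17 and 0.946), and OVTOKO exceeded OVKATE by 2.17 (edgeR adjusted p = 0.0372). That call was lost with DESeq2 (adjusted p = 0.6), without the expression filter (0.06) and without MinION replicate 1 or 2 of IGROV-1 (0.082 and 0.069). The level was at least 39.6-fold above IGROV-1 in COV362, 34.6-fold in COV504, 21.3-fold in SK-OV-3 and 16.2-fold in OVTOKO, with adjusted p between 0.00038 and 0.0027. The OVKATE call (at least 4.6-fold, 6 counts, adjusted p = 0.022) was lost without MinION replicate 1 or 2 of IGROV-1, at 0.063 and 0.051, and with DESeq2, at 0.11.

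By line, each comparison with IGROV-1 PromethION tested 9 of the 10 genes. In OVMANA 4 were called, with CDH1, CDH3 and VIM higher and ZEB1 lower, where 35.4% of all 13030 genes were called. In OVKATE 7 were called, CDH1, CDH2, CDH3, CDH6 and TWIST1 higher and VIM and ZEB1 lower, against 49.2% of all genes. In OVTOKO 3 were called, CDH1, VIM and TWIST1 higher, against 34.1%. In SK-OV-3 8 were called, all higher and all but CDH11, against 41.8%. In COV362 7 were called, with CDH1, CDH2, CDH3, CDH6, VIM and TWIST1 higher and ZEB1 lower, against 42.5%. In COV504 all 9 were called, 8 higher and ZEB1 lower, against 43.5%. Since 7 of the 9 genes were at or near 0 in IGROV-1, they passed the filter through the lines in which they were high and had to differ there, so these counts describe the lines and lend no support of their own. These comparisons share the IGROV-1 libraries, and with DESeq2 the count was 4 in COV362 and 5 in COV504.

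Over all 21 pairs of the 7 lines, 35.4% of gene-by-pair tests were called. CDH1 and VIM were called in 18 pairs each, CDH6 in 17, CDH2 and ZEB1 in 16 each and TWIST1 in 13. CDH3 and SNAI2 were called in 10 pairs and CDH11 in 5. Without MinION replicate 1 of IGROV-1 the number fell to 4 for CDH3, 6 for SNAI2 and 2 for CDH11.

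OVKATE and COV504 carried E-cadherin and N-cadherin RNA together, each above 50 CPM, whereas OVMANA carried CDH1 with 0 counts of CDH2. SK-OV-3 and COV362 had more than 50 CPM of CDH2 with 5.06 CPM of CDH1 or less. OVTOKO and IGROV-1 had neither above 2.31 CPM, although both carried VIM and ZEB1. The line of 50 CPM was not part of the planned tests. It lies within the 95% Poisson intervals of CDH2 in SK-OV-3 (42.1 to 62.7 CPM) and CDH1 in COV504 (49.5 to 70.1 CPM). The libraries are bulk RNA, so fewer cells with a gene and less RNA per cell cannot be told apart, and whether single cells of OVKATE and COV504 carried both cadherins was not measured.

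Between the instruments, VIM and ZEB1 were tested in IGROV-1 and neither was called, where 0.817% of 10041 genes were. The log2 change on the MinION was 0.36 for VIM (SE 0.12, edgeR adjusted p = 0.21) and 0.29 for ZEB1 (SE 0.16, adjusted p = 0.42). At an unadjusted p under 0.05 in edgeR, 1 of the 2, VIM, passed, and VIM was called with the replicate number as a block (adjusted p = 3e-06).

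Other genes of adhesion and of the transition were examined in 6 lists, whose counts are read beside the shares of all genes called. Of all genes, COV504 had 24% higher and 19.6% lower than IGROV-1, OVKATE had 26.8% and 22.4%, OVMANA had 18.9% and 16.5%, COV362 had 23.7% and 18.8%, SK-OV-3 had 22% and 19.8%, and OVTOKO had 18.2% and 15.9%. A list count near these shares is not a result about the list. Many epithelial and mesenchymal genes of the lists, such as ESRP1, RAB25, SPARC and TGFBI, were at or near 0 in IGROV-1 PromethION. Such genes passed the filter through the lines in which they were high and could hardly be called lower. List counts above these shares therefore describe the lines and lend no support of their own. Of 15 epithelial genes known as repressed in EMT, OVMANA had 13 called higher than in IGROV-1 and 0 lower, OVKATE 13 and 1 and COV504 11 and 1, and these were the lines with high CDH1. The numbers were 6 higher and 2 lower in COV362, 4 and 2 in SK-OV-3 and 2 and 2 in OVTOKO. On the CPM scale with floors, the median log2 change was 4.36 in OVMANA, 5.31 in OVKATE and 3.79 in COV504, beside 0.03, 0.43 and 0.18 over all genes. Over genes with counts in both groups, the median on the CPM scale alone was 0.30 above the fitted one in OVKATE and 0.23 in SK-OV-3, and within 0.08 of it in the other 4 lines. The list changes on the CPM scale are relative to those shifts.

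EPCAM, an epithelial adhesion molecule, had 1813.5 CPM in OVMANA, 817 in OVKATE, 365 in COV504 and 158 in COV362, and it was called higher than in IGROV-1 (0.6 CPM) in all 6 lines. RAB25, a trafficking GTPase, was at 307 CPM in OVKATE and at most 8.9 CPM in any other line. ST14, which encodes the membrane protease matriptase, had 173 CPM in OVKATE, 159 CPM in OVMANA and 99.2 CPM in COV504, and at most 2.0 CPM elsewhere. ESRP1, an epithelial splicing regulator, had 87.1, 84.1 and 24.9 CPM in OVMANA, OVKATE and COV504 and at most 5.1 CPM elsewhere.

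Of 16 mesenchymal genes known as induced in EMT, 12 were called higher and 1 lower in SK-OV-3, 12 and 0 in COV504, 10 and 2 in OVTOKO and 10 and 4 in COV362. OVKATE had 5 higher and 4 lower, and OVMANA 4 and 5. The fitted median log2 change was 6.04 in SK-OV-3, 4.67 in COV504, 2.79 in COV362, 1.09 in OVTOKO, 0.48 in OVKATE and 0.00 in OVMANA. With floors on the CPM scale it was 6.29, 4.82, 2.80, 1.45, 0.79 and 1.19 in the same order. The floor is higher in a single library than over both IGROV-1 libraries, which raises genes at 0 in both. The matricellular gene SPARC had 2043 CPM in SK-OV-3 and 843 CPM in OVKATE and 0 in OVMANA and IGROV-1. The fibronectin gene FN1 had 782 CPM in SK-OV-3 and 266 CPM in COV504, 12.9 CPM in IGROV-1 and 0 in OVMANA and OVKATE. FSTL1 was high in IGROV-1 too, at 566.9 CPM, beside 586.5 CPM in SK-OV-3, 512.5 CPM in COV504 and 0 in OVMANA. TGFBI had 485.7 CPM in SK-OV-3, 385.3 CPM in COV504, 152.0 CPM in OVTOKO and 0 in OVMANA and IGROV-1.

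Fibroblast markers were highest in SK-OV-3 and COV504, where 5 genes summed to 306 and 88.5 CPM, against 0.6 to 30.2 CPM in the other 8 libraries. OVTOKO and COV362, each with 10 mesenchymal genes called higher, had sums of 0.6 and 5.9 CPM. In SK-OV-3 the sum consisted of COL1A1 (219 CPM), LUM (52.7 CPM), COL3A1 (33.9 CPM) and DCN (0.51 CPM), and PDGFRB was at 0. In COV504 it was nearly all COL1A1 (81.4 CPM), with DCN at 0. Their part in the result was not tested.

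**Figure D4:**
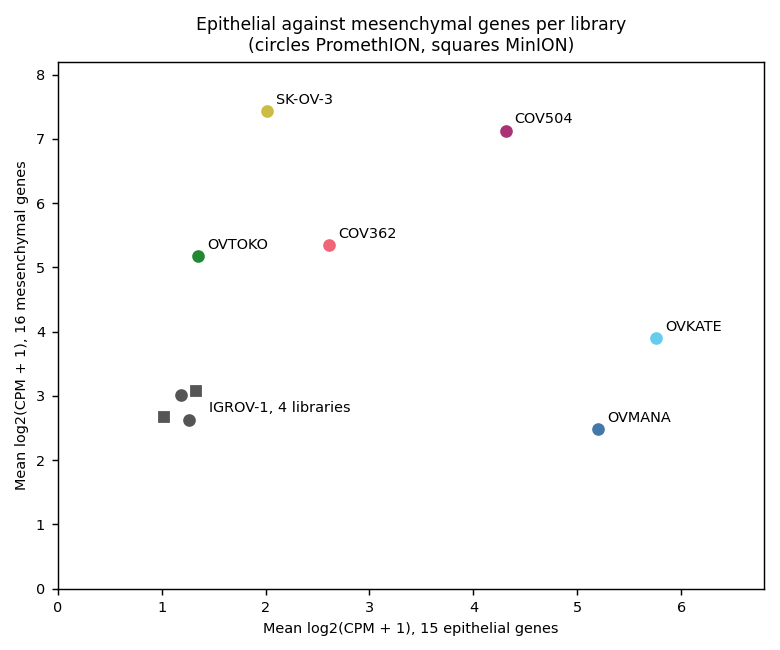
Mean log2(CPM + 1) of 15 epithelial genes (x axis) and of 16 mesenchymal genes (y axis) in each of the 10 libraries. COV504 combines 4.31 on the epithelial axis with 7.13 on the mesenchymal axis, SK-OV-3 has 2.01 and 7.43, OVMANA 5.20 and 2.48, and the 4 IGROV-1 libraries lie low on both, at 1.02 to 1.33 and 2.62 to 3.08.

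The epithelial mean was 5.76 in OVKATE, 2.61 in COV362 and 1.35 in OVTOKO on the log2(CPM + 1) scale, and the mesenchymal mean in these lines was 3.90, 5.35 and 5.17. The 4 IGROV-1 libraries spread over 0.31 on the epithelial axis, less than the distance from their highest value to SK-OV-3. OVTOKO fell just outside their epithelial range and far above their mesenchymal range.

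Of the other transcription factors of the transition, 9 of 12 were tested. The numbers higher and lower were 4 and 3 in COV504, 3 and 1 in SK-OV-3, 3 and 2 in OVTOKO, 2 and 2 in COV362, 1 and 2 in OVKATE and 0 and 3 in OVMANA. TWIST2, a relative of TWIST1, was found in 4 of the 5 lines with TWIST1, at 26.8 CPM in SK-OV-3, 13.7 in COV362, 12 in COV504 and 7.5 in OVTOKO, and was at 0 in OVKATE, OVMANA and IGROV-1. PRRX1, a mesenchymal homeobox factor, was found at 22.8 CPM in SK-OV-3 and 8.0 CPM in COV504 and at 0 in the other 5 lines. FOXC1, a forkhead factor, was highest in OVTOKO (95.4 CPM) and was called lower in COV362 (0.4 CPM against 36.6 CPM in IGROV-1). TCF4, which encodes an E protein, had 28.0 CPM in COV504 and 14.5 CPM in COV362.

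Of epithelial transcription factors, 7 of 10 were tested. OVKATE and COV504 had 5 higher and 0 lower, OVMANA 3 and 0, COV362 2 and 2, SK-OV-3 1 and 1, and OVTOKO none in either direction (edgeR). The grainyhead factor GRHL2, an activator of epithelial genes, had 24.2 CPM in OVKATE and 8.9 CPM in COV504 but 0 in OVMANA, the line with the most CDH1. OVOL2, a zinc finger repressor of mesenchymal genes, had 52.4 CPM in OVKATE, 14.2 in COV504 and 6.9 in OVMANA. EHF, an ETS factor of epithelia, had 37.1, 25.8 and 5.9 CPM in the same lines. GRHL1 was highest in OVKATE, at 17.8 CPM.

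Of 17 other cadherins, 6 passed the filter. COV504 had 3 higher, OVKATE and SK-OV-3 2 each, OVMANA and OVTOKO 1 each and COV362 none. CDH13, CDH16 and CDH18 were at 0 and CDH4 at 0.2 CPM in IGROV-1 PromethION, so they could not be called lower. CDH16, a cadherin of kidney epithelium, had 141 CPM in OVTOKO, the line with 2.31 CPM of CDH1 as its only member cadherin, and 20.8 CPM in SK-OV-3. CDH13, which encodes T-cadherin, anchored to the membrane without a cytoplasmic part, had 126 CPM in COV504 and 13.7 CPM in SK-OV-3 and 0 in the other 5 lines. CDH5, the cadherin of endothelium, had 24.9 CPM in COV504. The endothelial genes PECAM1 and KDR were at 0.89 and 1.78 CPM and VWF was at 0 there. CDH4, which encodes R-cadherin, had 10.2 CPM in COV504 and at most 0.2 CPM elsewhere.

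Of 13 tested catenins and junction partners, OVKATE had 6 higher and 3 lower, OVMANA 4 and 4, COV504 3 and 3, SK-OV-3 and COV362 3 and 4 each, and OVTOKO 2 and 4. With so few genes, these counts are not read as a result about the list. CTNNB1, the gene of beta-catenin, which binds the cadherin tail, was lower than in IGROV-1 in all 6 lines and was singled out after its values were seen. It had 266 and 289 CPM in the IGROV-1 PromethION libraries and 230.5 and 269 CPM on the MinION, but 90.1 to 141 CPM in the other lines. It fell by 0.91 (OVMANA) to 1.71 (OVKATE) on the log2 scale, with edgeR adjusted p between 0.00011 and 0.0035. The plakophilin gene PKP3 was higher in all 6 lines, with 52.9 CPM in OVMANA against 1.9 CPM in IGROV-1, while its relative PKP2 was at 0 in OVTOKO. The nectin gene NECTIN4 was highest in OVKATE (25.2 CPM), as was CTNND2 (13.4 CPM), which encodes delta-catenin.

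**Figure D5:**
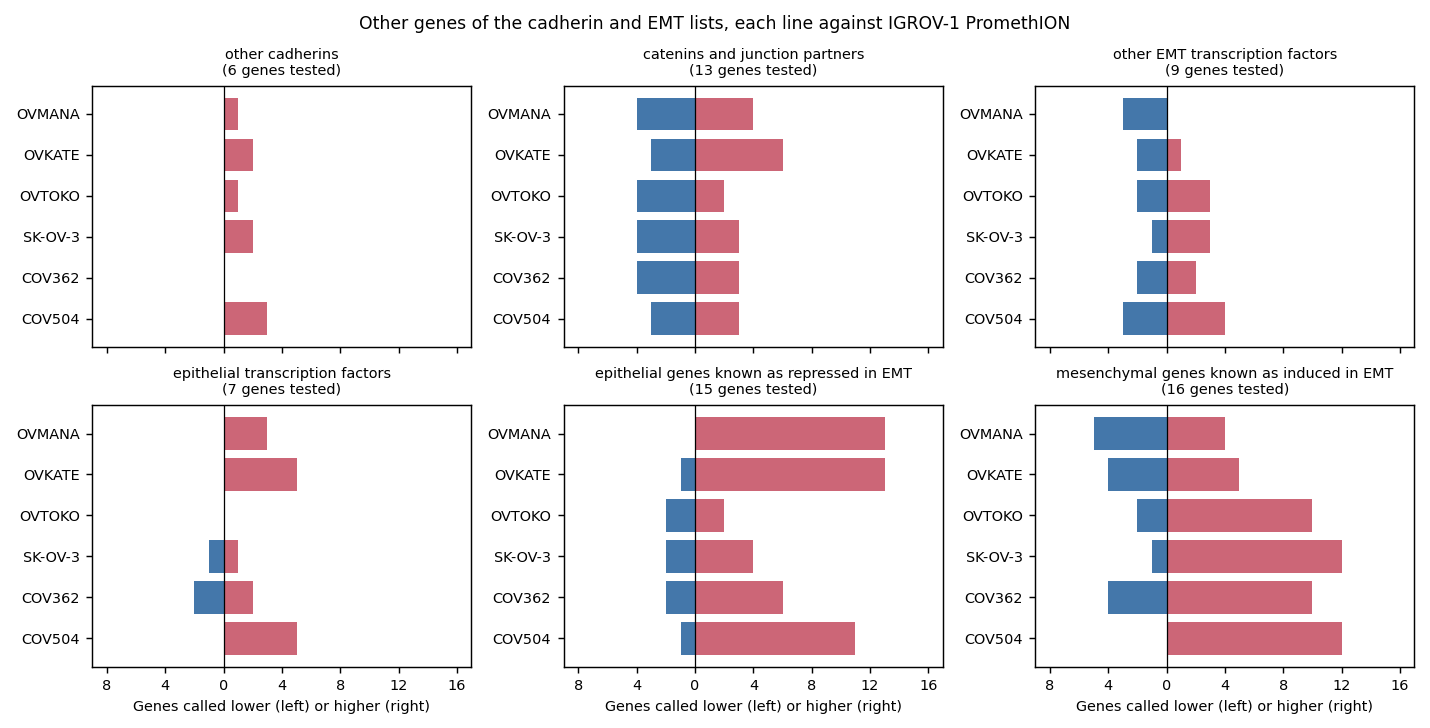
Number of genes (x axis) of 6 lists called lower (blue, left) or higher (red, right) than in IGROV-1 PromethION in each line (y axis), by edgeR at an adjusted p under 0.05. All 6 comparisons share the IGROV-1 libraries. Epithelial genes were mostly higher in OVMANA, OVKATE and COV504 and mesenchymal genes mostly higher in OVTOKO, SK-OV-3, COV362 and COV504. Many of these genes were at or near 0 in IGROV-1 and could hardly be called lower.

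Across the 7 lines, the genes with the profile most like each member were found by Pearson correlation of log2(CPM + 1) over 12507 genes. These are descriptions over 7 points that share library depth, and so many genes reach high values over few lines. CDH1 was most like KIDINS220 (0.981), MPZL2 (0.976) and OSBPL2 (0.967), of which MPZL2 ran from 0 CPM in IGROV-1 to 32.1 CPM in OVKATE. CDH2 was most like LINC00116 (0.994), CDCA7L (0.993) and HACD4 (0.990), and CDH6 most like BEX4 (0.999), which had 199 CPM in OVKATE, 23.8 to 108.5 CPM in SK-OV-3, COV362 and COV504 and 0 in the other 3 lines. CDH3 was most like ATL3, RUVBL1 and MST1R, with values between 0.965 and 0.967.

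CDH11 followed CD177 (0.998) and the T-cadherin gene CDH13 (0.987). VIM was most like GRK5 (0.964), and ZEB1 most like MMP24-AS1 (0.995), ARHGAP10 (0.987) and FBXO31 (0.972). SNAI2 was most like the collagen gene COL3A1 (0.999), and MMP1 (0.992), a collagenase gene, had 506 CPM in SK-OV-3. TWIST1 was most like PML (0.991), SLFN11 (0.972) and PTPRE (0.972).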

How the data were processed

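The authors deposited, per transcript, an estimated count that need not be whole and a TPM value. The deposited TPM matched the CPM computed from the counts within 5.6e-11. It holds no division by length, so levels of different genes are not scaled to each other. The marker sums and the line of 50 CPM used for both CDH1 and CDH2 carry this limit. Reads were aligned with minimap2 2.24-r1122 to GRCh38, per the submitters' processing notes. The labels' protocols give total RNA and the same ligation kit for all libraries. How reads were counted, and whether by strand, is not given in the sources used here.

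Transcript counts were summed per gene, rounded and tested with the quasi-likelihood test of edgeR 4.0.16 (R 4.3.3), with TMM scaling, the default expression filter by group, two-sided tests and Benjamini-Hochberg adjustment over all genes. Calls were made at an adjusted p under 0.05. All 10 libraries entered the fit of the lines, which has 2 residual degrees of freedom and a biological coefficient of variation of 11.7%. The instruments were compared over the 4 IGROV-1 libraries. Transcript usage was tested with edgeR's exon-level procedure on transcripts and a Simes p per gene. The tests were tested on simulated data with 200 genes drawn to change. Alternatives were DESeq2 1.42.0 (test and size factors), no filter, a minimum of 10 CPM, other references, a replicate block and leaving out each IGROV-1 library. The IGROV-1 replicate pairs differed beyond sampling noise (chi-square divided by its degrees of freedom 4.36 on the PromethION and 6.73 on the MinION).

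Shares carry 95% Wilson intervals and levels exact Poisson intervals, and both cover counting error only, as does the floor of 3 counts. Of each list, at most 4 genes with the widest range of log2(CPM + 1) over the lines were named, and for likeness up to 3 of the most correlated genes per member. For SNAI2, 1 such gene is not reported here. Transcripts come from GENCODE 29. The members and lists were chosen with earlier results of these data known.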

Additional observations from a re-analysis of the deposited data

How the results depend on the processing

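Reversal was checked only for log2 changes of members against IGROV-1 PromethION, with more than 3 counts on either side, and between instruments. None of these reversed under an alternative that gave an adjusted p. DESeq2 called fewer genes against IGROV-1, with 1442 in OVMANA, 2116 in OVKATE, 1314 in OVTOKO, 1672 in SK-OV-3, 1587 in COV362 and 1771 in COV504, against 4613, 6405, 4443, 5446, 5544 and 5672 with edgeR. The cause was not tested. It called 4 members in COV362 and 5 in COV504, and 9.15% of tests over the 21 pairs of lines. Without the expression filter that share was 18.1%. The instrument comparison called 82 genes, but 49 with all 10 libraries in the fit, 15 without the filter and 1979 with the replicate number as a block, under which VIM was called (1 member, adjusted p = 3e-06).

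The replicate numbers share only a number in the labels, and the deviations of same-numbered libraries correlated at 0.27 over 11647 genes. KRT18, named above for its shift, had 263 and 1041 CPM in PromethION replicates 1 and 2 and 244 and 1080 CPM on the MinION. The fit of the lines takes its 2 residual degrees of freedom from these pairs as if they were independent. If same-numbered libraries hold the same RNA, its p-values rest on a single difference read on both instruments. Whether they do was not tested. With the block, usage calls rose to 102 in OVTOKO and 161 in SK-OV-3.

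Leaving out 1 IGROV-1 library at a time gave the following ranges. The share called over the 21 pairs was 22.1% to 38.9%. Genes called numbered 3139 to 4611 in OVMANA, 5328 to 6159 in OVKATE, 2890 to 4398 in OVTOKO, 4157 to 5244 in SK-OV-3, 4152 to 5321 in COV362, 4380 to 5413 in COV504 and 4 to 209 between instruments. Usage calls numbered 27 to 36, 51 to 71, 13 to 17, 18 to 27, 39 to 44 and 29 to 38 in the 6 lines in that order. Members called numbered 4 in OVMANA, 6 to 7 in OVKATE, 2 to 3 in OVTOKO, 7 in SK-OV-3, 5 to 6 in COV362 and 8 to 9 in COV504. Of the summary values, 231 stayed within 1.5 times and 46 moved further. Of the values of single members, 490 stayed the same, 33 lost a call, 1 gained one and 8 counts of pairs moved. For log2 changes, staying the same means the same direction and side of the threshold. For counts of pairs called it means within 1.5 times, and for CDH6 usage the same side of the threshold. Depth limits ZEB2, CDH11 and CDH3 most, since 4, 23 and 31 counts were their highest in any library.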
